A study of Mus musculus with 12 samples.

Results

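Conventional CD4+ T cells carrying the M176 form of Foxp3 were compared with the same kind of cells carrying wild-type (WT) Foxp3, on 4 arrays out of a series of 12. The arrays were chosen by their titles alone, 2 labelled as transduced with M176 and 2 as transduced with WT. The recipient cells of both groups were WT conventional CD4+ T cells from spleens of male C57Bl/6 mice aged 6 weeks. They received a retrovirus in culture and were double sorted as live CD4+ cells with high Thy1.1, the surface marker that reports transduction. The other 8 arrays, 2 per group, hold cells transduced likewise with a further form, M354, and regulatory T cells (Tregs) sorted as CD4+ CD25-high cells from spleens of mice of the same strain, sex and age whose own Foxp3 gene is WT, M176 or M354. No group received a virus without Foxp3, the transduced cells still have their own WT Foxp3 gene, and the sources used here do not give the amino acid changes behind M176 and M354. Whether both arrays of a group represent separate animals or separate cultures is not in the labels. The p-values thus cover only the spread between arrays, which may be technical, and a difference between cultures cannot be told apart from one between Foxp3 forms. Values are intensities on a linear scale, 1 per gene and array. In bulk RNA of this kind, fewer cells of a type and less RNA per cell cannot be told apart.

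Foxp3 is a forkhead transcription factor that specifies Tregs, the T cells that restrain other immune cells. Put into conventional T cells by retrovirus, it turns on part of the Treg programme and dampens effector cytokines. Many of the genes below are better known from hypoxia. The factor HIF-1 joins an oxygen-labile subunit, HIF-1 alpha, to a stable partner, Arnt. Prolyl hydroxylases of the Egln family mark HIF-1 alpha for destruction through the von Hippel-Lindau protein Vhl. In activated T cells HIF-1 alpha also accumulates with oxygen present, and its targets include the glucose transporters, most enzymes of glycolysis and several genes that limit HIF-1 itself, among them Egln1 and Egln3.

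Foxp3 RNA was abundant in both groups. Its intensity was 5945 and 6163 on the WT arrays and 5663 and 5233 on the M176 arrays. The groups did not overlap, but the log2 difference was small at -0.15, with a 95% interval from -0.42 to 0.11 (limma adjusted p = 1). The probe set does not tell the inserted forms from each other or from the cells' own Foxp3. The cells expressed the T cell gene Cd3e, which lay between 6110 and 6676 on the 4 arrays. Cd4 lay between 3762 and 5201 and Thy1 between 8176 and 9114. The sort chose cells by CD4 and high Thy1.1, so these levels are not separate evidence of cell type. Some transcript of other cells was present in both groups, such as the B cell gene Cd79a at 341 to 390 and Cd8a at 344 to 449, against an array median between 102.8 and 105.8. The summed level of 14 B cell markers was 5198 and 5251 with WT and 4715 and 5045 with M176, and that of 4 plasma cell markers 528.9 to 635.8 with WT and 412.9 to 449.1 with M176. The part of these markers in the results was not tested. Of 7 myeloid and 7 dendritic cell markers, 6 each lay below the array median on all 4 arrays.

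Nearly the whole profile of M176 cells lay close to that of WT cells, and a small group of genes was lower. Of 8918 genes tested, 46 were called (0.516%), 45 lower (0.505%) and 1 higher (0.0112%) with M176, by limma at a Benjamini-Hochberg adjusted p under 0.05. For 8820 genes (98.9%) the 95% interval of the change lay within 2-fold, and the median log2 change over all genes was -0.009. The 45 genes that fell had a median change of -0.90 and in each both M176 arrays lay below both WT arrays. That separation is common on 2 arrays a group, since 1428 genes (16%) showed it with M176 lower and 1198 (13.4%) with M176 higher. The smallest p that an exact test of 2 arrays against 2 can give is 0.333, so the calls rest on the model fitted across genes. The count was 26 without M176 array 1, 23 without M176 array 2 and 27 without WT array 1, and 20 of the 46 genes were called whichever of the 4 arrays was left out.

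Ak4, which encodes a mitochondrial adenylate kinase, fell most by the brightest probe set of each gene. Its intensity was 658 and 675 with WT and 133 and 143 with M176, a 4.82-fold fall (log2 -2.27, SE 0.13, adjusted p = 2.45e-08). With the mean of its probe sets the fall was smaller, at -1.42 on the log2 scale (limma adjusted p = 9.05e-06), so its size depends on the probe set. Ndrg1, a stress-response gene, read 1772 and 1917 with WT and 475 and 434 with M176 (log2 -2.02, SE 0.13, adjusted p = 7.31e-08). Both M176 arrays lay far below both WT arrays in each gene, and the arrays of a group lay close together.

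Bnip3 and Egln3 fell by similar amounts. Bnip3, a mitochondrial protein that promotes mitophagy, went from 2067 and 1894 to 493 and 661 (log2 -1.79, SE 0.19, adjusted p = 3.75e-05). Egln3, a prolyl hydroxylase that acts on HIF-1 alpha, went from 2564 and 2117 to 676 and 682 (log2 -1.78, SE 0.17, adjusted p = 1.84e-05). Vegfa, the main growth factor of blood vessels, read 536 and 514 with WT and 197 and 173 with M176 (log2 -1.51, adjusted p = 9.14e-05). Ero1a, an oxidase that drives disulfide bond formation in the endoplasmic reticulum, read 3553 and 3496 against 1245 and 1330 (log2 -1.45, adjusted p = 1.84e-05). Plod2, which hydroxylates lysines of collagen, fell from 175.3 and 175.7 to 62.3 and 67.5 (log2 -1.44, adjusted p = 3.7e-05). Plod2 was above the array median on the 2 WT-transduced arrays alone, and on the other 10 it read 26.2 to 89.3. It entered the test only through the group where it is high, so its call and the size of its fall are a description. The same holds for Maff and Mgarp, named for this reason after their values were seen, among the 45 genes that fell. Ciart and Stc1, the latter also named after its values were seen, were each above the median on 1 array besides the WT-transduced pair. They too passed the filter only with that group, so their calls are likewise a description. The 10 largest falls also hold Ciart and Mt2, described further on, and Prelid2, whose product is related to lipid transfer proteins of mitochondria (log2 -1.43, adjusted p = 0.000213). Leaving Plod2 and Ciart aside, the calls of these genes other than Mt2 held without any 1 of the 4 arrays.

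**Figure D1:**
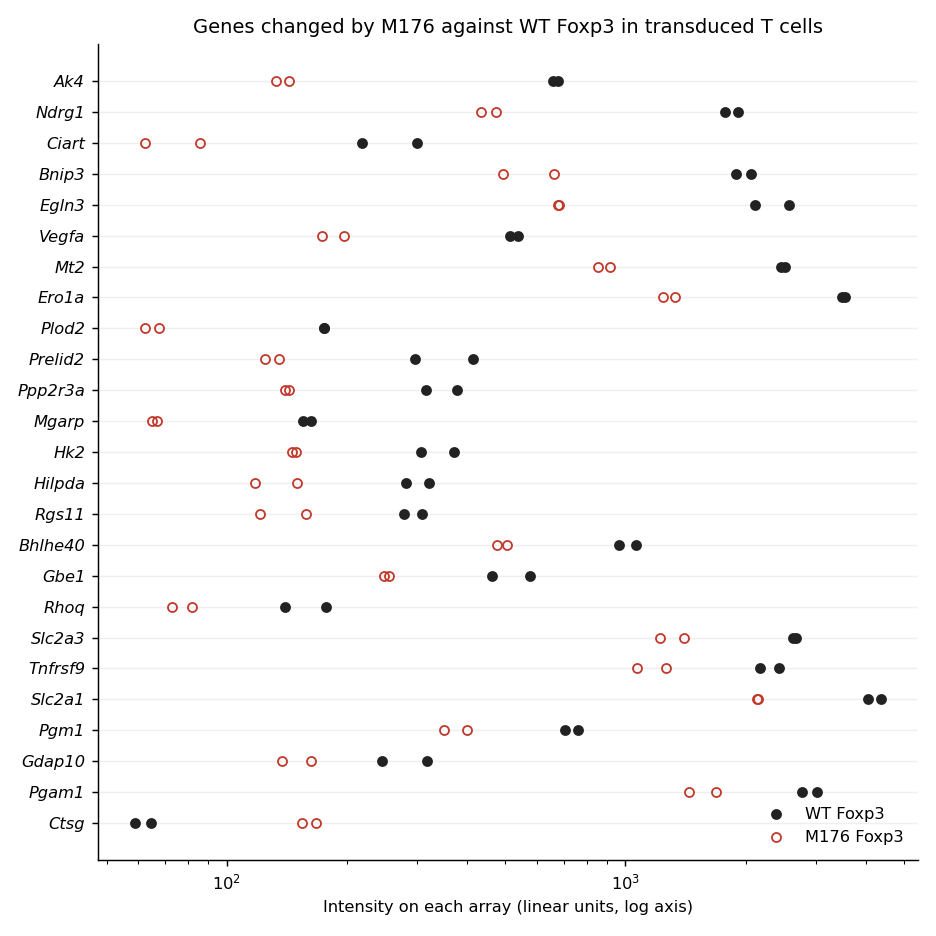
Intensity on each of the 4 arrays (linear units on a log axis) for the 24 genes that fell most, ordered by log2 change, and Ctsg, the gene that rose; filled circles are the 2 WT arrays and open circles the 2 M176 arrays. In every row the arrays of the groups do not overlap, and the gap is widest for Ak4, at 133 and 143 against 658 and 675.

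The promoters of the genes that fell were read after the values had been seen, because the genes moved together. Among these 45 genes, 21 are on a list of HIF-1 targets described below. A high share of the HIF-1 core in them is therefore not separate evidence. HIF-1 binds the core ACGTG or GCGTG, and the palindrome CACGTG, which holds ACGTG on both strands, is bound by several other factors, including those of the circadian clock. The 250 bases before each transcription start were taken from RefSeq promoters (GRCm38.p6) and searched on both strands. Of the 45 genes that fell, 33 had an entry. ACGTG was found in 24 of them (72.7%), against 25.2% of the 7110 tested genes with an entry. ACGTG or GCGTG was found in 81.8% against 61.6%, CACGTG in 21.2% against 9.96%, and the forkhead core TGTTTAC in 3.03% against 2.57%. A gene can have several starts, and the 33 genes had 48 windows, against 8981 for the 7110. Per window the gaps were narrower, with ACGTG in 52.1% against 21.8%, ACGTG or GCGTG in 64.6% against 56.1%, CACGTG in 14.6% against 8.38% and GCGTG in 43.8% against 44.8%. The genes lower in M176 Tregs (1011 genes, 800 with an entry) held ACGTG in 20.4%. A match is a description of the letters and not a site, and no test was made. The genes with an entry include Ciart, Maff and Mgarp, which passed the filter only with the WT-transduced group, where they are high. Ciart and Maff are also among the genes with CACGTG. The shares of the genes that fell are thus a description. The promoters of 6 genes that fell are given 5′ to 3′ on the strand of the gene, ending at the base before the start, with each ACGTG or GCGTG of either strand in capitals. They were picked to show several matches (Bnip3, Ero1a), matches in glycolytic genes (Hk2, Pgk1), repeated palindromes (Ciart) and a glycolytic gene with no match (Tpi1).
Bnip3 (chr7:138909507-138909756, minus strand): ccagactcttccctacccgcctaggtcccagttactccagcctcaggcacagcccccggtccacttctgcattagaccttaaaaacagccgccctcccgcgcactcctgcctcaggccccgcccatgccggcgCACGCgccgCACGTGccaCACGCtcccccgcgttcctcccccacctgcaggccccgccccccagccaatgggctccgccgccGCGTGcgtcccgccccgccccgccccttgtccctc
Ero1a (chr14:45318573-45318822, minus strand): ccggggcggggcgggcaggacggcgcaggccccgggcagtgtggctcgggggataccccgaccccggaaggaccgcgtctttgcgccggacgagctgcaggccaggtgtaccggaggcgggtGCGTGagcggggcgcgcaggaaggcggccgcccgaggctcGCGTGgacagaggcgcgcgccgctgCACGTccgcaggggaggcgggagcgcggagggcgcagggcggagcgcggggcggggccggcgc
Hk2 (chr6:82774455-82774704, minus strand): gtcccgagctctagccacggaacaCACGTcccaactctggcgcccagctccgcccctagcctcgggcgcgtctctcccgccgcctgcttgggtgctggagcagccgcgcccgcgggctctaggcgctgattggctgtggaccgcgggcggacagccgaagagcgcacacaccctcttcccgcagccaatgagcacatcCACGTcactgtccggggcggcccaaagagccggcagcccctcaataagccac
Pgk1 (chrX:106186850-106187099, plus strand): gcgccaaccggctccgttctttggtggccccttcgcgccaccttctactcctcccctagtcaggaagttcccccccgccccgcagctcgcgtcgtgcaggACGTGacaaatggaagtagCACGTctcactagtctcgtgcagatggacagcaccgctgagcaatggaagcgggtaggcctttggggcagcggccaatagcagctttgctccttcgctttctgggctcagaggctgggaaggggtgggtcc
Ciart (chr3:95882229-95882478, minus strand): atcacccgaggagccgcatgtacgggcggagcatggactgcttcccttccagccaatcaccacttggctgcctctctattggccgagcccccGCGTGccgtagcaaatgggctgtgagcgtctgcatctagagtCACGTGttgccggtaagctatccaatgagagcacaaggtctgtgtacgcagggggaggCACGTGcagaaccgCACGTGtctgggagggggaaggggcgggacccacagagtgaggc
Tpi1 (chr6:124814159-124814408, minus strand): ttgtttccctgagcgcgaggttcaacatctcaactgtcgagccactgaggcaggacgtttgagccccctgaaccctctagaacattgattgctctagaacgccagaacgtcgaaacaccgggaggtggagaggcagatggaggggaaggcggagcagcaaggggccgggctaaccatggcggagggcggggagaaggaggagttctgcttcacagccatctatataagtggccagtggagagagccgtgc
The core is counted on both strands, so each palindrome gives a pair of matches. The Bnip3 window holds 5 matches of the core, including the pair from 1 palindrome, and the Ciart window holds 7, including the pairs from 3 palindromes. The Pgk1 window holds a pair of ACGTG cores in opposite orientation, and that of Ero1a holds 3 cores.

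Genes of glucose uptake and glycolysis were lower with M176. The list has 19 genes, 12 of them tested. Of these 12, 7 fell (58.3%, against 0.505% of all genes) and 0 rose. At an unadjusted limma p under 0.05, 11 were lower with M176 (3.85% of all genes were). All 12 changes were negative (median -0.82, against -0.009 over all genes). The median was between -0.73 and -0.86 with any 1 of the 4 arrays left out, but 4 fell, not 7, without M176 array 1, M176 array 2 or WT array 1. The pathway begins with the transporters. Slc2a1, the main glucose transporter of activated T cells, read 4048 and 4375 with WT and 2153 and 2132 with M176 (log2 -0.97, SE 0.12, adjusted p = 0.000237). Slc2a3, a transporter of higher affinity, read 2678 and 2636 against 1401 and 1220 (log2 -1.02, SE 0.13, adjusted p = 0.000213). Hexokinase 2 (Hk2), which traps glucose as its phosphate, read 372 and 308 against 146 and 149 (log2 -1.20, SE 0.15, adjusted p = 0.000236). In all 3 genes both M176 arrays lay well below both WT arrays, and these 3 calls held without any 1 array.

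Further down the pathway 4 more enzymes fell. Pfkp, a phosphofructokinase subunit at the committed step, read 1714 and 1598 with WT and 960 and 900 with M176 (log2 -0.83, adjusted p = 0.00411, or 0.0842 without M176 array 2 and 0.057 without WT array 1). Tpi1, triose phosphate isomerase, read 2876 and 2809 against 1774 and 1750 (log2 -0.69, adjusted p = 0.0147). Pgk1, which makes the first ATP of the pathway, read 3892 and 3511 against 1877 and 2151 (log2 -0.88, adjusted p = 0.02). Pgam1, a phosphoglycerate mutase, read 2768 and 3017 against 1442 and 1681 (log2 -0.89, adjusted p = 0.00186, or 0.0551 without M176 array 1). All 4 genes were clearly separated between the groups, but the calls of Tpi1 and Pgk1 depended on single arrays. That of Tpi1 was lost without any 1 of the 4 (adjusted p = 0.113, 0.158, 0.141 and 0.0588 without M176 array 1, M176 array 2, WT array 1 and WT array 2). That of Pgk1 was lost without M176 array 1 (0.308), M176 array 2 (0.094) or WT array 1 (0.188).

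The remaining 5 genes of the list did not pass. Pfkfb3, which makes the activator of phosphofructokinase, changed by -0.81 and the aldolase gene Aldoa by -0.56 (adjusted p = 0.0672 each). The pyruvate kinase gene Pkm changed by -0.52 (adjusted p = 0.289). Lactate dehydrogenase A (Ldha), the last step to lactate, changed by -0.32 (95% interval -0.60 to -0.03, adjusted p = 0.777). Pdk1, which restrains entry of pyruvate into mitochondria, read 1035 and 1111 with WT and 889 and 999 with M176 (log2 -0.19, adjusted p = 1). In the 12 genes the change was therefore largest at glucose uptake and phosphorylation and smallest at Pdk1, a description of the estimates whose differences were not tested.

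**Figure D2:**
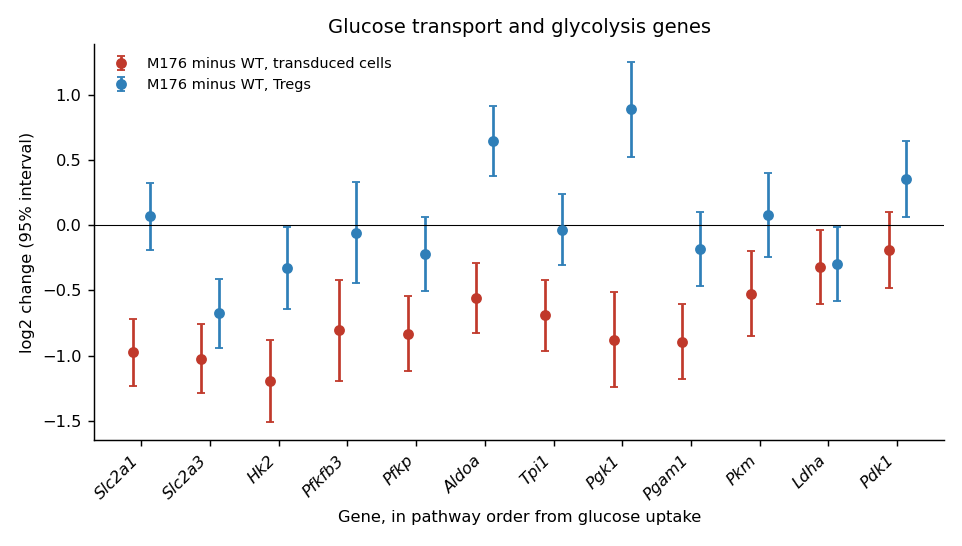
Change with M176 against WT Foxp3 (log2, with the 95% interval of the fit) for the 12 genes of the glycolysis list in pathway order from glucose uptake, in transduced cells (red) and in Tregs (blue). All 12 red points lie below 0, from -1.20 for Hk2 to -0.19 for Pdk1, and the blue points lie on both sides of 0.

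A wider list of HIF-1 targets holds most of the glycolysis list. It was drawn up after the values had been seen, and its count is a description that supports nothing. Of 34 tested genes of 51 listed, 21 fell and 0 rose (0.505% and 0.0112% of all genes did), 33 changes were negative, and the median was -0.84. Without M176 array 1, M176 array 2 or WT array 1, 15 of them fell. The genes named in this paragraph outside the glycolysis list and the largest falls were chosen after their values were seen. Hilpda, a lipid droplet protein that inhibits lipolysis, read 281 and 321 with WT and 118 and 150 with M176 (log2 -1.18, adjusted p = 0.000591). Gbe1, the branching enzyme of glycogen, read 575 and 462 against 255 and 248 (log2 -1.03, adjusted p = 0.000892). Pgm1, which links glucose phosphate to glycogen, fell by 0.97 on the log2 scale (adjusted p = 0.000708), whereas Gys1, glycogen synthase, changed by -0.37 and did not pass (adjusted p = 0.495). The falls of Hilpda, Gbe1 and Pgm1 were called without any 1 array. Egln1, the main oxygen-sensing hydroxylase, read 1035 and 866 against 502 and 559 (log2 -0.84, adjusted p = 0.00978), a call lost without M176 array 1 (0.174), M176 array 2 (0.0615) or WT array 1 (0.166).

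The subunits of HIF themselves were not called. Hif1a read 6236 and 5525 with WT and 4455 and 5170 with M176, a log2 change of -0.29 with a 95% interval from -0.58 to 0.00 (adjusted p = 0.844). The groups did not overlap, but the gap between the M176 arrays was wider than the gap between the groups. Arnt changed by -0.02 and Vhl by -0.20 (adjusted p = 0.98 for Vhl). The list of HIF subunits and their regulators was also written after the values had been seen, so its count is a description. Of its 8 tested genes 2 fell (25%, against 0.505% of all genes), Egln1 and Egln3, both also targets of HIF-1. The arrays measure RNA, and HIF-1 alpha is mainly controlled as a protein.

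Among 9 tested genes of the circadian clock 3 repressors fell (0.505% of all genes did). Ciart, a repressor of Clock and its partner Arntl, read 301 and 219 with WT and 85.9 and 62.3 with M176 (log2 -1.81, SE 0.17, adjusted p = 1.84e-05), so that the M176 arrays lay below the array median. It entered the test only with the WT-transduced arrays, where it is high, so its call and its place in this count are a description. Bhlhe40, a repressor that also shapes cytokine production by T cells, read 964 and 1061 against 477 and 503 (log2 -1.05, adjusted p = 0.000689). Nfil3, a repressor induced in activated lymphocytes, read 658 and 719 against 385 and 388 (log2 -0.83, adjusted p = 0.00492, or 0.0618 without M176 array 1 and 0.0703 without M176 array 2). The other 6 clock genes did not pass, with Clock at -0.07, Arntl at -0.02 and Dbp at 0.03. This list was also written after the values had been seen.

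The metallothioneins, small proteins that bind zinc and other metals, were lower. Mt2 read 2456 and 2514 with WT and 917 and 851 with M176 (log2 -1.49, SE 0.27, adjusted p = 0.0115). Mt1 read 683 and 677 against 460 and 405 (log2 -0.66, SE 0.13, adjusted p = 0.0179). Both genes had tight replicates and no overlap, yet both calls were lost without M176 array 1 (adjusted p = 0.0978 for Mt2 and 0.0533 for Mt1), M176 array 2 (0.173 and 0.318) or WT array 1 (0.057 and 0.148), and that of Mt1 without WT array 2 (0.0835). With a trended and robust prior for the spread, Mt2 was not called (0.353). Mtf1, the factor that induces metallothioneins, changed by 0.04.

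A pair of receptors of the tumour necrosis factor family fell. Tnfrsf9 (4-1BB), a costimulatory receptor that is high on activated Tregs, read 2169 and 2424 with WT and 1067 and 1267 with M176 (log2 -0.98, SE 0.15, adjusted p = 0.00186). Tnfrsf8 (CD30), named after its values were seen, read 351 and 352 against 195 and 224 (log2 -0.75, SE 0.12, adjusted p = 0.00492). The groups were well apart in both. Without M176 array 1 neither was called (0.0599 for Tnfrsf9 and 0.112 for Tnfrsf8). The list of this family, which does not hold Tnfrsf8, has 17 tested receptors and ligands. Of these 1 fell, Tnfrsf9 (5.88%, against 0.505% of all genes), and Tnfrsf4 (OX40) at -0.34 and Tnfrsf18 (GITR) at -0.25 did not pass.

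Few measured genes of the Treg programme were called. The list holds 44 genes high in Tregs, and 8 of them, among them Ctla4, Ikzf2, Icos and Itgae, were not analysed here. Of the 36 tested genes high in Tregs, 1 fell, Tnfrsf9, and 0 rose, which is 2.78% against 0.505% of all genes. The median was -0.21, with 26 negative changes and 13 genes at an unadjusted p under 0.05, all of them lower. Those shares stand beside 3.85% of all genes lower at that p. Ecm1, an extracellular matrix protein, read 3002 and 3209 with WT and 2225 and 2212 with M176 (log2 -0.48, adjusted p = 0.309). The chemokine receptor Ccr4 changed by -0.42 (adjusted p = 0.389), and Tigit, a receptor that inhibits T cells, by -0.43 (adjusted p = 0.398). Gpr83, an orphan receptor typical of Tregs, changed by -0.38 (adjusted p = 0.708). The groups did not overlap in any of these 4 genes, and none passed. Effector Treg genes (18 tested) had a median of -0.16 with 1 called, again Tnfrsf9 (5.56%, against 0.505% of all genes lower). Maf at -0.41 and Irf4 at -0.48 did not pass. Of 11 genes low in Tregs 0 were called, with a median of 0.05 and the cytokine gene Il2 at 0.28 (adjusted p = 1). The estimates of 35 of the 36 genes high in Tregs have intervals within 2-fold.

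In the other lists of T cell function no gene was called. The medians were -0.20 for 23 genes of the early response to the T cell receptor, with Fosl2 (adjusted p = 0.0727) and Ier3 (adjusted p = 0.0824) at -0.64 each, and -0.15 for 11 genes of the IL-2 receptor and STAT5 feedback. Chemokine receptors (12 tested) had a median of -0.17, and Foxp3 partners and other transcription factors (23 tested) one of -0.08. The 30 proliferation genes had a median of -0.10, which was 0.01 without WT array 1 and -0.20 without WT array 2, with the proliferation marker Mki67 at -0.26 (adjusted p = 1). For interferon response genes (26 tested) the median was -0.10, and Ifit1 read 183 and 99.9 with WT and 81.5 and 85.6 with M176 (log2 -0.70, adjusted p = 0.389). The lower WT array of Ifit1 lay close to the M176 arrays, and without that array, WT array 2, the gene was called (log2 -1.13). For cholesterol synthesis (17 tested) the median was -0.02 and for heat shock (10 tested) -0.03.

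**Figure D3:**
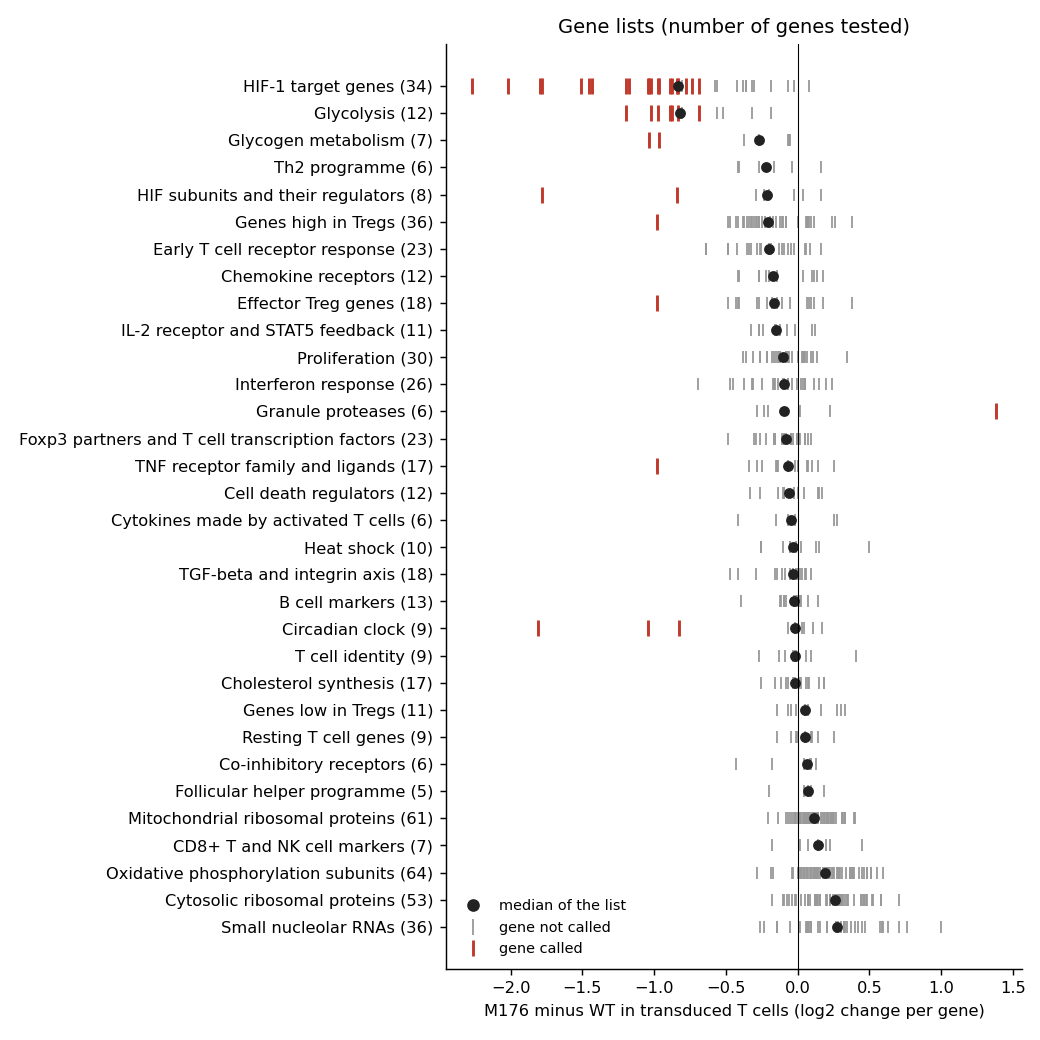
Change with M176 against WT Foxp3 in transduced cells (log2) for every tested gene of the lists with at least 5 tested genes; grey ticks are genes not called, red ticks called genes and black dots the medians, with the number of genes tested in brackets. HIF-1 targets (median -0.84) and glycolysis (median -0.82) lie apart from the other lists, whose medians lie between -0.27 and 0.27.

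On the higher side stood Ctsg alone. Cathepsin G, a serine protease best known from granules of neutrophils and mast cells, read 64.6 and 59.0 with WT and 155 and 167 with M176 (log2 1.38, SE 0.16, adjusted p = 0.000101). It was above the array median on these 2 M176 arrays alone, and on the other 10 arrays it read 32.7 to 64.7, against medians of 101.5 to 117.4. Ctsg thus entered the test only through the group where it is high, so its call is a description and the size of its rise is uncertain. The summed level of the 7 myeloid markers overlapped between the groups, at 382 to 436 with WT and 409 to 410 with M176, and 6 of the 7, all but Tyrobp, lay below the median on all 4 arrays. Cpa3, a protease of mast cells and basophils named after its values were seen, read 148 and 68.6 with WT and 261 and 110 with M176, groups that overlap (log2 0.75, adjusted p = 0.887). The T cell granule proteases Gzmb at -0.29 and Gzma at 0.02 were not called. The next genes on this side did not pass: Zc3hc1 at 0.57 (adjusted p = 0.0754), Tmem14c at 0.60 (adjusted p = 0.0799), Tspo, the mitochondrial translocator protein, at 0.75 (adjusted p = 0.183) and Selenow at 0.52 (adjusted p = 0.247).

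In several large families most changes were positive without a call. Of 64 subunits of oxidative phosphorylation, a list written after the values had been seen, 59 changes were positive with a median of 0.19, 15 had an unadjusted p under 0.05, all higher (2.06% of all genes did), and 0 were called. Cytosolic ribosomal protein genes (53 tested) had a median of 0.26, likewise with 15 at an unadjusted p under 0.05 and 0 called, and Rps29 read 1127 and 1178 with WT and 2138 and 1646 with M176 (log2 0.70, adjusted p = 0.378). Small nucleolar RNAs (36 tested) had a median of 0.27, which turned to -0.04 without M176 array 2 and to 0.00 without WT array 1. Snora16a shows the spread, with 285 and 546 with WT and 541 and 1150 with M176 (adjusted p = 0.576).

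In Tregs the same form of Foxp3 changed many more genes, and Foxp3 itself was lower there (log2 -0.73, adjusted p = 0.000554). With M176 Tregs against WT Tregs 2207 genes were called (24.7%), 1196 higher (13.4%) and 1011 lower (11.3%), a count of 916 without M176 Treg array 1, 1418 without WT Treg array 1 and 1438 without WT Treg array 2. Of the 45 genes that fell in transduced cells, 7 fell and 4 rose in Tregs (24.4%, against 24.7% of all genes), and their median change there was -0.13. The 4 that rose were Pgk1, Hilpda, Prelid2 and Sap30, the last named after its values were seen. Ak4 read 45.7 and 51.0 with WT and 53.9 and 48.1 with M176 in Tregs (log2 0.08, adjusted p = 0.695). Vegfa changed by 0.01 in Tregs and Slc2a1 by 0.07. Ak4 lay below the array median (104.1 to 117.4) on all 6 Treg arrays, as did 12 of the 45 genes, and a fall from such a level would be hard to see. Egln3 and Slc2a3 fell in both systems, by 0.81 (adjusted p = 0.00271) and 0.68 (adjusted p = 0.000975) in Tregs. Pgk1 and Hilpda fell in transduced cells and rose in Tregs, by 0.89 (adjusted p = 0.00135) and 0.71 (adjusted p = 0.00412). Over the HIF-1 targets the median in Tregs was 0.01, with 4 higher and 2 lower, and over glycolysis it was -0.05, with 2 higher and 1 lower. In 45 of the 45 genes the mean level in WT Tregs lay below that in WT-transduced cells. The genes were chosen for high values on those WT-transduced arrays, and no share over all genes is given here, so that count is a description.

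Whether M176 acted differently in the 2 systems was tested as an interaction. It called 488 genes (5.47%), 130 with the transduced change higher (1.46%) and 358 with it lower (4.01%). That count was 183 without transduced M176 array 1, 148 without M176 Treg array 1 and 303 without WT Treg array 1. Of the 45 genes that fell, 28 were among the 358. They were chosen for a low value in transduced cells, which enters this difference, so that count is a description, and 9 of the 28 lay below the array median on all 6 Treg arrays. The interaction was -2.35 for Ak4 (adjusted p = 1.72e-06), -2.04 for Ciart and -1.77 for Pgk1 (adjusted p = 0.000519). For Ak4, and for Ciart on 5 of the 6 Treg arrays, the Treg level was below the median, so the size of the difference is uncertain, whereas Pgk1 read 596 to 1260 there. For Tnfrsf8, which fell by 0.70 on the log2 scale in Tregs, it was -0.05 (95% interval -0.42 to 0.32, adjusted p = 0.904).

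**Figure D4:**
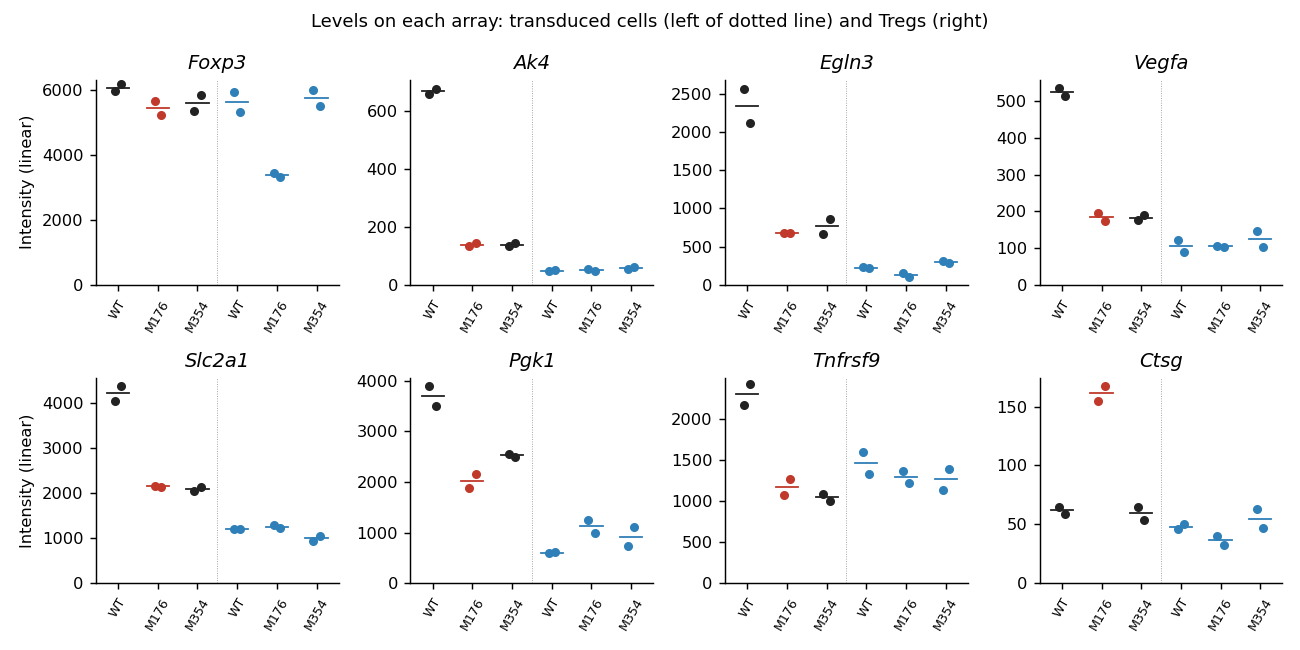
Intensity (linear units, axes from 0) on each array of the 6 groups for 8 genes; points are arrays and bars the means of 2, with transduced cells left of the dotted line and Tregs right of it. For Ak4, Egln3, Vegfa, Slc2a1, Pgk1 and Tnfrsf9 the WT-transduced arrays stand above all others, and for Ctsg the M176-transduced arrays do.

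The genes that M176 changed in Tregs were followed on the transduced arrays. Their change in Tregs is measured on the Treg arrays, but the filter and the spread of the fit use all 12 arrays, so the transduced arrays had a part in the calls. Of the 1011 genes lower in M176 Tregs, 741 (73.3%) also had a negative change in transduced cells, against 52.9% of all genes, with a median of -0.09 against -0.54 in Tregs. Of the 1196 genes higher in M176 Tregs, 856 (71.6%) had a positive change, against 47.1% of all genes, with a median of 0.09 against 0.66. Most of these changes were within the spread of the arrays: 7 of the 1011 and 0 of the 1196 were called in the same direction, and 4 of the 1196 were called lower. Over all genes, 0.505% were called lower and 0.0112% higher in transduced cells, so few calls are no trait of these sets. The shared direction rested in part on M176 array 2: 1597 of 2207 genes called in Tregs had the same sign in transduced cells, and without that array 1242 of 2151 did.

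The largest falls in Tregs had small changes in transduced cells. Gzmb, the cytotoxic protease granzyme B, read 5549 and 5356 with WT and 3791 and 5270 with M176 in transduced cells (log2 -0.29, adjusted p = 1), and 293 and 418 against 47.6 and 52.8 in Tregs (log2 -2.80). Ccna2, cyclin A2, changed by -0.22 in transduced cells and -2.66 in Tregs, and Mki67 by -0.26 and -2.15. Klrg1, an inhibitory receptor, read 117 and 101 against 117 and 115 in transduced cells (log2 0.10) and changed by -2.26 in Tregs. Its level in these transduced cells was near the array median and below that of the Treg arrays (130 to 872). A fall from such a level would be hard to see. Among the rises in Tregs, the heat shock gene Hspa1a read 117 and 118 with WT and 124 and 137 with M176 in transduced cells (log2 0.15, 95% interval -0.12 to 0.42) but changed by 2.85 in Tregs. The ribosomal protein gene Rps21 changed by 0.53 (adjusted p = 0.705) and 2.51. These genes were chosen for their change in Tregs, and none of them was called between M176 and WT in transduced cells.

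**Figure D5:**
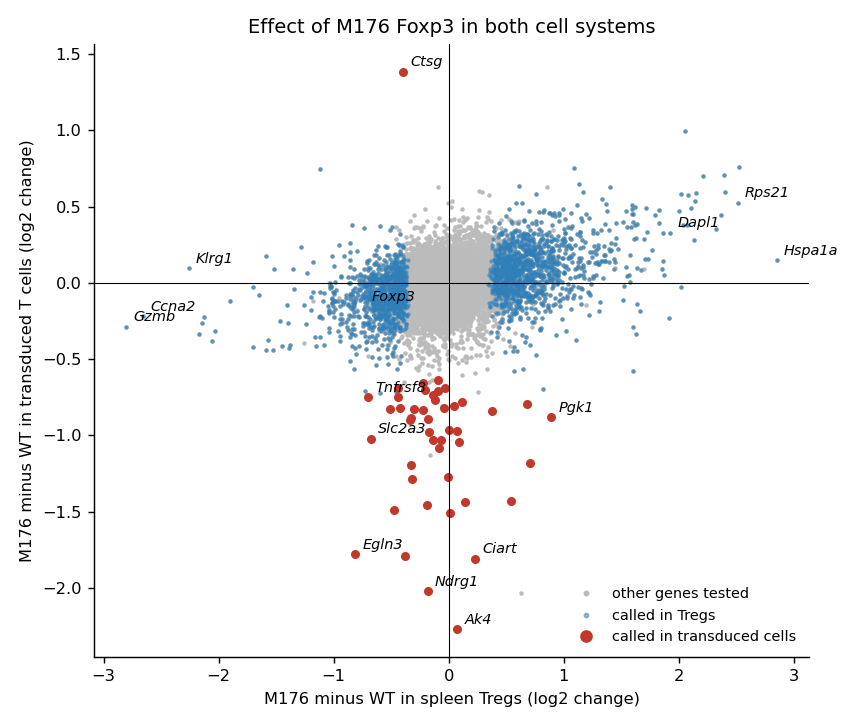
Change with M176 against WT Foxp3 in Tregs (horizontal) and in transduced cells (vertical), both log2, for each of 8918 genes; blue points were called in Tregs and red points in transduced cells. The red points lie low along the vertical axis, with Ak4 at -2.27 and Ctsg alone above 0, while the widest changes along the horizontal axis, such as Gzmb at -2.80 and Hspa1a at 2.85, lie near 0 vertically.

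Few genes were called between M176 and M354 in transduced cells, where 462 (5.18%) had an unadjusted limma p under 0.05. With 2 arrays a group, a gene that was not called is not thereby shown to be alike. Between them 7 genes were called (0.0785%), 2 higher (0.0224%) and 5 lower (0.0561%) with M176, and 0 of the 45 that fell against WT were among them. For those 45 the difference between the mutants lay between -0.49 and 0.42, with all 45 intervals within 2-fold (lowest bound -0.88, highest 0.71). Ak4 read 133 and 143 with both M176 and M354 after rounding, a difference of 0.01. M354 against WT, which shares the WT arrays with the M176 comparison, called 39 of the 45 lower (0.976% of all genes were called lower there), with a median of -0.89 against -0.90 for M176. Because those arrays are shared, the likeness of these changes is not evidence of its own, and the 2 WT arrays set the level from which both mutants depart. Of the 36 tested genes high in Tregs, 11 were called lower and 0 higher against WT with M354. With M176, 1 was called lower, when 0.505% of all genes were.

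Ctsg was higher with M176 than with M354, at 155 and 167 against 64.7 and 53.8 (log2 1.45, adjusted p = 0.000585), a call with the limit given above. Gpr83 was higher too, at 399 and 390 against 184 and 263 (log2 0.84, adjusted p = 0.0461). Lower with M176 were Gzmc, a granzyme, at 333 and 334 against 699 and 631 (log2 -0.99, adjusted p = 0.024), the mitotic kinesin Kif4 (-0.99), the kinetochore gene Zwilch (-0.87), Shcbp1, which acts in cell division (-0.81), and Lypd6b (-0.79), which was above the array median on the 2 M354 arrays alone. In Kif4, Zwilch and Shcbp1 the WT arrays lay between the mutants, and the changes against WT did not pass for M176 (adjusted p = 0.833, 0.874 and 0.777) or for M354 (0.0523, 0.0693 and 0.066). Over 30 proliferation genes the median against WT was -0.10 with M176 and 0.44 with M354. Of these 30, 4 were called higher against WT with M354 and 0 with M176. The share of all genes called higher with M354 is not given here. The count of 7 rests on few arrays: it was 2 without M176 array 1, 1 without M176 array 2, 1 without M354 array 1 and 4 without M354 array 2. It was 1 with quantile normalization, 0 with the filter at percentile 75 (193 genes at an unadjusted p under 0.05) and 113 with the 4 compared arrays alone.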

How the data were processed

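RNA of all 12 samples was measured on Affymetrix Mouse Gene ST 1.0 arrays. Per the submitters' processing notes the authors used Affymetrix Power Tools and RMA; they deposited intensities on a linear scale. Versions, genome build and probe set library: not given in the sources used here. RMA aligns the distributions of the arrays, so changes are relative to the typical gene. The number of arrays limits the precision.

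Groups came from the titles. Of 20716 probe sets, 17703 named 1 gene, 1246 several and 1767 none; Entrez numbers of 17635 matched the reference table, with 0 symbols updated. They gave 16426 genes, with the brightest probe set kept for 734 genes with several. A gene was tested if above its array's median (percentile 50) on at least 2 of 12 arrays (8918 genes). A gene high in 1 group alone passed through that group. Lists are shortened by genes not analysed here, such as 8 of the 44 genes high in Tregs. Log2 intensities were fitted with limma 3.58.1 (R 4.3.3, statmod 1.5.0), 1 mean per group over 12 arrays, no block (6 residual and 10.9 prior degrees of freedom), with Benjamini-Hochberg adjustment over all genes. The script was tested on simulated data. The 5 comparisons were M176 against WT in each system, their difference, M176 against M354 and M354 against WT in transduced cells.

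Named genes are Foxp3, the 10 largest changes a direction among called genes without overlap (filled with the smallest p), the 10 largest a direction in Tregs, up to 5 a direction against M354, and up to 4 genes a list plus any called. The alternatives were other normalizations, filters, a pseudocount, probe set means, another prior, the replicate block, fewer arrays and each array left out. Members and lists were chosen with earlier results of these data known.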

Additional observations from a re-analysis of the deposited data

Results flagged for a closer look

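The effect of M176 against WT Foxp3 differed between transduced cells and Tregs in 488 genes by limma's interaction test (adjusted p under 0.05). Each value that follows is that difference on the log2 scale, the change in transduced cells minus the change in Tregs. Among the genes that fell most in transduced cells it was -2.35 for Ak4, -1.84 for Ndrg1, -2.04 for Ciart, -1.41 for Bnip3, -0.97 for Egln3, -1.52 for Vegfa, -1.26 for Ero1a, -1.58 for Plod2 and -1.97 for Prelid2. For Ctsg, the gene that rose in transduced cells, it was 1.78. Ak4, Plod2 and Ctsg lay below the array median on all 6 Treg arrays and Ciart on 5, so a change in Tregs would be hard to see and the size of these 4 differences is uncertain.

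Among the genes that fell most in Tregs it was 2.52 for Gzmb, 2.36 for Klrg1 and 1.90 for Ccr2. Klrg1 lay near the array median in transduced cells, so a fall there would be hard to see and the size of its difference is uncertain. For the cell division genes it was 2.44 for Ccna2, 1.84 for E2f8, 1.89 for Mki67, 1.68 for Bub1, 1.72 for Kif11 and 1.78 for Ccnb2, and for the microRNA gene Mir505 it was 1.68. Among the genes that rose most in Tregs it was -2.70 for Hspa1a, -1.99 for Rps21, -1.98 for Rpl24 and -1.51 for Rps29. The small nucleolar RNA genes Snord15b, Snord15a and Snord22 had differences of -1.81, -1.69 and -1.92. With 1 of the 8 arrays of these groups left out, the call of the difference was lost for Egln3 in 6 cases (adjusted p 0.055 to 0.187), Snord15b in 6 (0.0762 to 0.228), Bub1 in 5 (0.0716 to 0.139) and Mir505 in 2 (0.0912 to 0.0947). In settings with all arrays it was lost for Snord15b in 5 (0.0574 to 0.27), Bub1 in 2 (0.117 to 0.19), Mir505 in 1 (0.109) and Snord15a in 1 (0.0559). The genes were picked for large changes in 1 of the systems, which enters the difference. Dixon's rule for single arrays applies to groups of 4 or more and was not used on these groups of 2.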

How the results depend on the processing

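The count of 46 genes called between M176 and WT in transduced cells was 26 with the filter at percentile 75, which tests fewer genes, and between 23 and 53 with 1 array left out; in the other 9 settings it lay between 41 and 59. The change of Foxp3 was between -0.21 and -0.10 in every setting. The count for M176 against M354 was 1 with quantile normalization, 0 with the filter at percentile 75, 12 with a trended and robust prior, 113 with only the arrays compared, and 1 to 4 with 1 array left out; the cause was not tested. With 1 array left out, the interaction called 148 to 540 genes, Tregs 916 to 1522, and the gene lists, apart from those written after the values were seen, held 4 to 9 called genes, not 8. The HIF-1 targets held 15 to 20, not 21. The genes called in Tregs that kept their sign in transduced cells, 1597 in all, numbered 720 to 1703 with 1 array left out. Of the 46 calls, 26 were lost without at least 1 array and 0 turned direction in any setting. Same-numbered M176 and WT arrays did not deviate together in transduced cells (r = 0.044 over genes), which shows no pairing by number for these groups. Other pairs of groups ranged from r = -0.551 (M354 and WT, transduced cells) to 0.251 (WT Tregs and M176-transduced cells), and the cause was not tested. With the replicate block 45 genes were called. With 1 array left out, the change of 7 genes that were not called turned sign: Arnt (-0.19 to 0.14), Arntl (-0.11 to 0.069), Clock (-0.19 to 0.056), Dbp (-0.016 to 0.075), Gzma (-0.35 to 0.39), Il2 (-0.078 to 0.63) and Klrg1 (-0.0077 to 0.20).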
